A study of Mus musculus with 18 samples.

Results

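The data compare the effect of losing Pitx1 on hindlimb gene expression at 2 stages of the mouse embryo. The quantity followed is the stage shift of a gene, which is the null minus wild type difference at e11.5 (e, embryonic day) less the same difference at e11.0, on the log2(CPM + 1) scale (CPM, counts per 1000000 counted reads). Of the 18 libraries of the series, 12 were used: 3 each from wild type and Pitx1 null hindlimb buds at e11.0 and at e11.5, all labelled with the strain BALB/c. The 2 deposited tables, 1 per stage, listed 14027 genes at e11.0 and 13478 at e11.5, and the 12935 genes in both were tested, of 14570 listed in either. The labels do not state which part of the Pitx1 gene the null allele lacks, and they name no Cre, drug or other allele.

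Stage and library type changed together. At e11.0 the libraries came from RNA depleted of ribosomal RNA and at e11.5 from enriched mRNA, so embryo stage and library type cannot be told apart in any stage shift. Levels were therefore compared only between null and wild type within a stage. Replicates 1 and 2 of every group came from run3982, and replicate 3 came from run3412 (e11.0) or from run126 (e11.5, without strand). The CPM values imply a depth of 17.4 to 44.2 M reads (M, 1000000) per e11.0 library and 30.2 to 53.6 M per e11.5 library, so that 1 read was worth at most 0.0575 CPM. Wild type replicates 1 and 2 at e11.0 were less alike than those of the other groups. Across 10128 genes their difference had an SD of 0.215 (log2), against 0.146 to 0.158 in the other 3 groups. This SD does not say which of the 2 libraries was unusual. Replicate 2 was the shallowest library, at 17.4 M reads, with 18.8 M in null replicate 1 at e11.0. Whether the replicates are separate litters or pools is not in the labels. The p-values thus speak only of the spread among these libraries, which may be technical. Replicate 2 of every group held both the female RNA Xist and Y-linked RNA, with values given below.

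Pitx1 encodes a homeodomain transcription factor that is made in the hindlimb bud and not in the forelimb bud, and it is known for giving the hindlimb its identity, in part through the T-box gene Tbx4. In the limb bud a mesenchyme of lateral plate origin grows under the signals of the apical ectodermal ridge (Fgf) and of the posterior margin (Shh). Transcription factors such as Lhx2, Lhx9, Lmx1b and Msx1 pattern this mesenchyme. Its core then condenses into cartilage precursors under Sox9, which with Sox5 and Sox6 switches on the collagens Col2a1 and Col9. The comparison asks which genes depend on Pitx1 differently at the later stage.

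The promoters of 2 of the results are shown first, because of their place in the genome. Lmx1b, the dorsal selector gene of the limb (chromosome 2, 33560965 to 33640511, minus strand, GRCm38), and C130021I20Rik, annotated as an antisense noncoding gene (chromosome 2, 33641193 to 33646354, plus strand), are transcribed away from each other. Their annotated genes lie 681 bases apart, and both had positive stage shifts. Gbx2, a homeobox gene (chromosome 1, 89927956 to 89931179, minus strand), had the second largest positive shift. Each sequence is the 250 bases before the gene's start in RefSeq (GRCm38.p6, minus strand, written 5′ to 3′), at chr2:33641099-33641348 for Lmx1b and chr1:89931177-89931426 for Gbx2. Capitals mark the 156 bases of the Lmx1b window that lie inside the annotated C130021I20Rik gene.
Lmx1b: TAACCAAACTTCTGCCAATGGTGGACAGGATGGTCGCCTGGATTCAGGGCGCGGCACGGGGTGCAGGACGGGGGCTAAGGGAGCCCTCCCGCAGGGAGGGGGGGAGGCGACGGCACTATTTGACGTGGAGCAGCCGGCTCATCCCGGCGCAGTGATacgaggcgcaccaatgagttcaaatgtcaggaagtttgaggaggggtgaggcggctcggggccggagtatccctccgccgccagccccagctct
Gbx2: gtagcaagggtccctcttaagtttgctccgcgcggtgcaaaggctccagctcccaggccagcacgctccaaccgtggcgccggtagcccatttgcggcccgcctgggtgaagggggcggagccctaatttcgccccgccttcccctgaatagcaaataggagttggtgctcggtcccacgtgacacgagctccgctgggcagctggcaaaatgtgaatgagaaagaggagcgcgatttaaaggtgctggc
The Lmx1b window ends 587 bases from the start given by GENCODE release M21 and the Gbx2 window 3 bases from it. Neither window holds TAATCC, the core letters bound by Pitx1, on either strand.

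Pitx1 (ENSMUSG00000021506, chromosome 13, 55825051 to 55836192, minus strand) was measured as a check of the labels. At e11.0 it was at 136, 114 and 122 CPM in wild type replicates 1, 2 and 3 and at 22.9, 19.3 and 21.3 CPM in the null. At e11.5 it was at 319, 330 and 364 CPM in wild type and at 72.1, 78.8 and 88.6 CPM in the null. Every null library was thus below every wild type library of its stage, and reads were still counted on the gene in the null. The difference was -2.49 ± 0.08 (SE) at e11.0 and -2.07 ± 0.08 at e11.5. The stage shift of 0.42 ± 0.11 did not pass (limma adjusted p = 0.105), with adjusted p = 0.0211 with the replicate number as a block and 0.00912 without wild type replicate 2 at e11.0, where the shift was 0.49.

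Tbx4, the hindlimb T-box factor, gave nearly the same difference at both stages, -1.19 ± 0.10 and -1.23 ± 0.10. Wild type libraries were at 77.5, 57.6 and 63 CPM at e11.0 and 178, 170 and 220 CPM at e11.5, and null libraries at 30.4, 31.2 and 23.4 CPM and then 76, 69.3 and 96.3 CPM. No null library reached a wild type library of its stage. The stage shift was -0.03 ± 0.14, with a 95% confidence interval from -0.33 to 0.26 (limma adjusted p = 0.901).

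Of the 12935 genes, 47 (0.363%) had a stage shift past the threshold, an adjusted p under 0.05 by limma with Benjamini-Hochberg adjustment over all genes. The null difference was more positive at e11.5 for 22 of them (0.17%) and more negative for 25 (0.193%). The split depended on scaling: 21 and 47 genes passed in the 2 directions after trimmed-mean scaling, 18 and 58 after median-ratio scaling and 20 and 51 after upper-quartile scaling. With the replicate block 210 genes (1.62%) passed, 138 higher (1.07%) and 72 lower (0.557%), among them all 47. At an unadjusted p under 0.05 there were 2664 genes (20.6%), 1815 with a positive and 849 with a negative shift. The shifts of the 47 genes were between 0.43 and 1.58 in size on the log2 scale. At least 1 was reached by 13 of them, 3 positive and 10 negative, of 20 genes among all tested. In all 47 genes the 3 same-numbered null minus wild type differences did not overlap between the stages. The 22 positive genes were higher at e11.5 in this way, as were 21.1% of all genes tested, and the 25 negative genes lower, as were 9.1%. The differences come from the same libraries as the test, so they are a description of the calls and not separate evidence.

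In 31 of the 47 genes the null difference had opposite signs at the 2 stages. Of these, 15 were lower in the null at e11.0 and higher at e11.5, and 16 the reverse. Another 10 had the same sign at both stages and a larger difference at e11.5, and 6 had the same sign and a smaller one. Over all genes tested, 35.3% had opposite signs, 22.2% were larger and 42.6% were smaller at e11.5. These are signs of the measured values: the test is of the shift, and the difference at a single stage is given with its SE and without a test. Across all 12935 genes the 2 differences correlated with a Pearson r of 0.49 and a Spearman rho of 0.44, a description over genes that share libraries and are not independent.

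**Figure D1:**
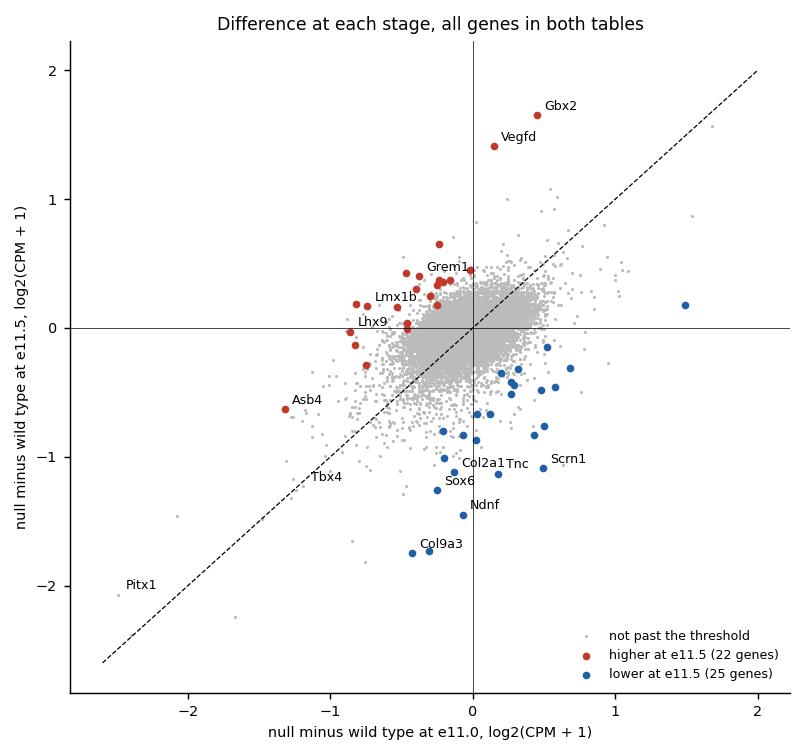
Null minus wild type difference at e11.0 (horizontal axis) and at e11.5 (vertical axis), both in log2(CPM + 1) and each fitted from 3 null and 3 wild type libraries, with 1 point per gene. The dashed line marks equal differences: the 22 genes with positive shifts (red) lie above it, the 25 with negative shifts (blue) below, and Pitx1 and Tbx4 lie near it at the lower left.

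Cartilage genes gave the largest group of negative shifts. Of 21 genes on the cartilage list 12 were in both tables, 3 only in the e11.5 table and 6 in neither, and of the 12 tested 4 passed, all negative: Col2a1, Col9a2, Col9a3 and Sox6. The median null difference of the 12 genes was -0.35 at e11.0 and -0.99 at e11.5, and their median shift -0.29, against 0.05 over all genes. Col2a1, the main collagen of cartilage matrix (chromosome 15, 97975602 to 98004695, minus strand), was at 146, 149 and 317 CPM in wild type and 141, 129 and 291 CPM in the null at e11.0. At e11.5 the wild type libraries were at 540, 601 and 689 CPM and the null libraries at 274, 264 and 300 CPM. The groups overlapped at e11.0, where replicate 3 was the highest in both, and were apart at e11.5. The difference went from -0.13 ± 0.06 to -1.12 ± 0.06, a shift of -0.99 ± 0.09 with the smallest adjusted p of all genes (0.000316).

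Col9a2 and Col9a3 encode chains of collagen IX, which decorates the collagen II fibril. Col9a2 was at 2.21, 2.3 and 3.03 CPM in wild type and 1.22, 1.48 and 3.1 CPM in the null at e11.0, and at 32.1, 35.9 and 27.6 against 13.3, 10 and 5.07 CPM at e11.5. Its shift was -1.42 ± 0.22 (limma adjusted p = 0.0142), and on this scale the change of such low levels at e11.0 is understated. Col9a3 was at 1.95, 2.01 and 2.96 against 1.17, 1.04 and 2.24 CPM at e11.0 and at 19.2, 19.6 and 17.2 against 7.14, 4.81 and 3.25 CPM at e11.5, a shift of -1.31 ± 0.19 (adjusted p = 0.012). In both genes the wild type and null libraries overlapped at e11.0 and were separate at e11.5, where null replicate 3 was the lowest library.

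Sox6, a partner of Sox9 in switching on cartilage genes, was at 17.7, 18.4 and 24.4 CPM in wild type and 15.4, 17.2 and 17.2 CPM in the null at e11.0. At e11.5 wild type was at 29.1, 34 and 27.6 CPM and the null at 15, 11 and 10.3 CPM, and the shift was -1.01 ± 0.16 (limma adjusted p = 0.0142). Sox9 itself, which starts the cartilage lineage, did not share it. Its difference was -0.92 ± 0.14 at e11.0 and -0.96 ± 0.14 at e11.5, a shift of -0.05 ± 0.19 (adjusted p = 0.902). Sox5, with a shift of 0.16 ± 0.11 (0.412), and Col9a1, the other collagen IX chain, with -0.18 ± 0.16 (0.533), did not pass either. Col11a2, of the minor fibrillar collagen XI, had a shift of -0.91 ± 0.22 and an adjusted p of 0.0903, and passed with the replicate block (0.0447).

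The count of 4 cartilage genes stood after each of the 3 scalings and was 5 with the block (0.557% of all genes passed in that direction). It was 2 without wild type replicate 1 or null replicate 2 at e11.0, 1 without wild type or null replicate 3 at e11.5, and 1, Col2a1, in run3982 alone, so the calls other than Col2a1 rest on replicate 3 as well. The 6 list genes in neither table and the 3 only at e11.5 give no shift.

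**Figure D2:**
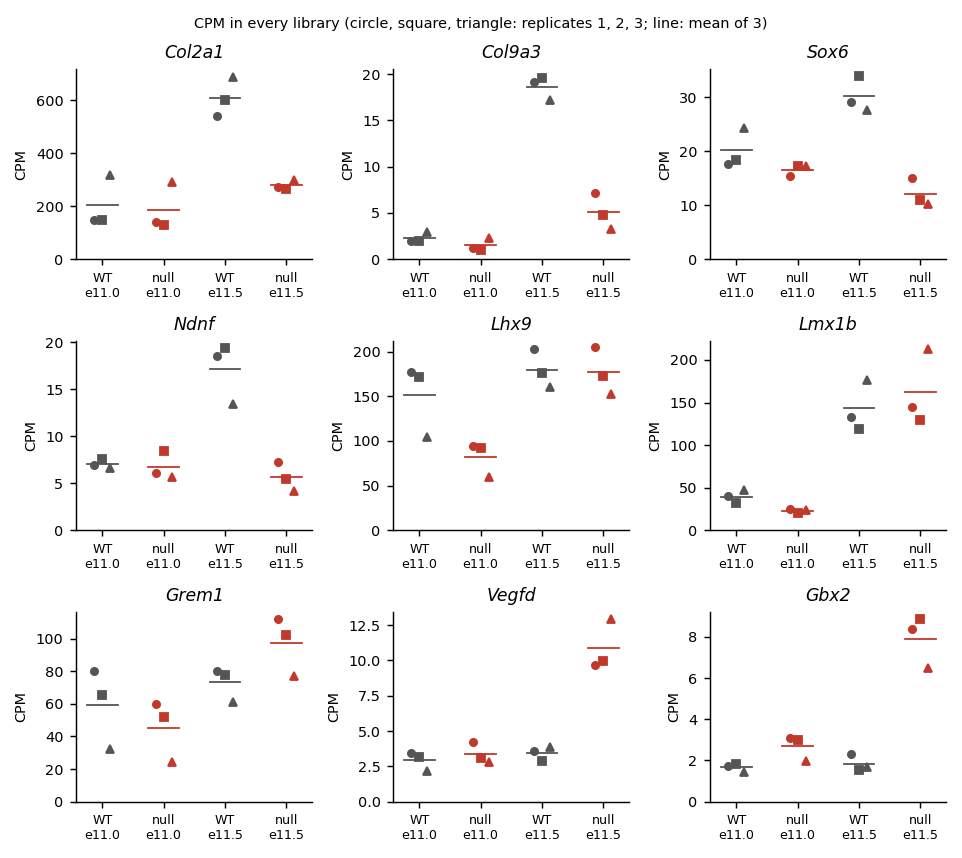
Deposited CPM in each of the 12 libraries for 9 genes with stage shifts past the threshold, by genotype and stage, with the mean of 3 as a line and axes starting at 0. The cartilage genes and Ndnf part at e11.5 with the null below wild type, Vegfd and Gbx2 part there with the null above, and Lhx9 and Lmx1b part at e11.0.

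Factors of the limb mesenchyme gave the largest group of positive shifts. All 25 genes of the list were tested, and 5 passed, all positive: Lhx9, Lmx1b, Lhx2, Msx1 and Prrx2. Their list had a median null difference of -0.40 at e11.0 and 0.01 at e11.5, a median shift of 0.29, and 22 of 25 positive shifts, against 7644 of 12935 over all genes. Lhx9, a LIM-homeodomain factor that with Lhx2 relays ridge signals to the posterior mesenchyme (chromosome 1, 138825186 to 138848577, minus strand), was at 177, 172 and 104 CPM in wild type and 94.5, 92 and 59.7 CPM in the null at e11.0. At e11.5 wild type was at 203, 176 and 160 CPM and the null at 205, 173 and 152 CPM. The 2 groups were apart at e11.0 and overlapped at e11.5. The difference went from -0.86 ± 0.07 to -0.03 ± 0.07, a shift of 0.84 ± 0.10 (limma adjusted p = 0.0046).

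Lhx2 was at 65.5, 53.7 and 48.3 CPM in wild type and 59.2, 54.4 and 31.3 CPM in the null at e11.0, with overlap, and at 109, 100 and 104 against 144, 150 and 204 CPM at e11.5, without. Its shift was 0.89 ± 0.17 (limma adjusted p = 0.0419, passed in 3 of the 12 fits that left out a library). Lmx1b, whose promoter is shown above, was at 39.9, 31.6 and 47.4 CPM in wild type and 25.7, 20.3 and 23.6 CPM in the null at e11.0. At e11.5 it was at 133, 119 and 177 against 145, 130 and 213 CPM, with overlap, and its shift was 0.91 ± 0.15 (adjusted p = 0.0234). Its divergent neighbour C130021I20Rik was at 108, 92.5 and 84.3 against 62.4, 48.5 and 49.6 CPM at e11.0 and at 174, 161 and 193 against 191, 184 and 231 CPM at e11.5. The neighbour's shift of 1.01 ± 0.12 (adjusted p = 0.0046) was of like size, and since the strand setting of the counting is not given in the sources used here, reads of overlapping transcripts cannot be assigned to a strand.

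Msx1, a homeobox gene of proliferating distal mesenchyme, went from a difference of -0.40 ± 0.09 to 0.30 ± 0.09, a shift of 0.71 ± 0.13 (limma adjusted p = 0.0419). It was at 102, 97.5 and 109 CPM in wild type and 91.3, 66.7 and 76.2 CPM in the null at e11.0, and at 139, 128 and 152 against 165, 154 and 200 CPM at e11.5. The null was the lower group at the earlier stage and the higher group at the later one, with no overlap at either. Prrx2, a paired-type homeobox gene of limb mesenchyme, went from -0.24 ± 0.07 to 0.37 ± 0.07 (shift 0.60 ± 0.10, adjusted p = 0.0173). With the replicate block Sall1, Sall3 and Tbx15 passed as well, for 8 genes in all (1.07% of all genes passed in that direction). Tbx15, a T-box gene of proximal mesenchyme, stayed far below wild type at both stages (-1.26 ± 0.09 and -0.69 ± 0.09).

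The mesenchyme count rested on many libraries. It was 11 without wild type replicate 2 at e11.0, where 1869 of all 12935 genes passed with a positive shift. It was 1 without wild type replicate 1 or null replicate 2 at e11.0, or without replicate 2 or 3 of either group at e11.5, and 2 without replicate 3 of either group at e11.0 or null replicate 1 at e11.5. It stayed 5 after each of the 3 scalings, and in run3982 alone it was 1.

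Among 14 genes of the pathway of Shh, Grem1 passed. Grem1 is a secreted Bmp antagonist that keeps the loop between Shh and the ridge Fgfs running. It was at 79.9, 65.5 and 32.2 CPM in wild type and 59.6, 51.7 and 24.4 CPM in the null at e11.0, and at 80.4, 77.8 and 61.4 against 112, 102 and 77.3 CPM at e11.5. In each same-numbered pair the null was the lower library at e11.0 and the higher at e11.5, and the differences went from -0.38 ± 0.08 to 0.40 ± 0.08 (shift 0.78 ± 0.11, limma adjusted p = 0.012). Without null replicate 2 at e11.0 Grem1 did not pass (adjusted p = 0.0542).

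The other Shh pathway genes did not pass without the block. The median shift of the 14 genes was 0.38 and 12 were positive. With the block 4 passed: Grem1, Hand2, Gli1 and Gli3 (1.07% of all genes passed with a positive shift). Without wild type replicate 2 at e11.0 8 passed with a positive shift, as did 1869 of all 12935 genes. Gli3, which represses Shh targets, had a shift of 0.53 ± 0.15 (limma adjusted p = 0.123) and Hand2, which acts upstream of Shh at the posterior margin, of 0.37 ± 0.09 (0.105). Gli1, a transcriptional target of the signal, had 0.41 ± 0.13 (0.139), and Shh itself 0.54 ± 0.25 (0.238). Ptch1, receptor and target of Shh, had -0.03 ± 0.12 (0.886).

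Asb4, a component of a ubiquitin ligase and a member of the list of anterior and girdle factors, kept a lower level in the null at both stages, with a smaller difference at e11.5. It was at 384, 357 and 205 CPM in wild type and 153, 153 and 75.8 CPM in the null at e11.0, and at 584, 575 and 468 against 413, 383 and 269 CPM at e11.5. The groups did not overlap at either stage. The difference went from -1.32 ± 0.07 to -0.63 ± 0.07 (shift 0.70 ± 0.10, limma adjusted p = 0.00709). It was the call among 8 tested genes of that list, whose median shift was 0.37. Zic2, a zinc finger factor outside the lists, changed alike, from -0.83 ± 0.09 to -0.13 ± 0.09 (shift 0.70 ± 0.13, adjusted p = 0.0385).

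Vegfd, a ligand of the vascular endothelial growth factor family known for lymphatic vessels (chromosome X, 164373378 to 164402650), had the largest positive shift. It was at 3.44, 3.16 and 2.19 CPM in wild type and 4.25, 3.06 and 2.79 CPM in the null at e11.0, and at 3.6, 2.86 and 3.88 against 9.69, 9.95 and 12.9 CPM at e11.5. The groups overlapped at e11.0 and were far apart at e11.5. The shift was 1.26 ± 0.16 (limma adjusted p = 0.00478). Gbx2, whose promoter is shown above and which is best known from the boundary of midbrain and hindbrain, was at 1.75, 1.84 and 1.45 against 3.08, 3.01 and 1.97 CPM at e11.0 and at 2.31, 1.55 and 1.68 against 8.4, 8.84 and 6.49 CPM at e11.5. Every null library was above every wild type library at both stages, and the difference grew from 0.45 ± 0.12 to 1.65 ± 0.12 (shift 1.2 ± 0.16, adjusted p = 0.00709).

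Nfil3, a basic leucine zipper factor and the only gene of the 47 on chromosome 13, where Pitx1 lies, had a shift of 0.69 ± 0.13 (limma adjusted p = 0.0394), a call kept in 1 of the 12 fits that left out a library. It was at 30.1, 22.7 and 26.7 CPM in wild type and 18.7, 17.5 and 17.7 CPM in the null at e11.0, and at 26.6, 26.6 and 32.2 against 29.1, 31.3 and 35.7 CPM at e11.5. Chromosome 13 holds 3.63% of all genes tested. None of the 11 tested neighbours of Pitx1 passed, and their median shift was 0.01 (1 positive and 1 negative at an unadjusted p under 0.05, and 0 with the replicate block). Mogat2, an enzyme of triglyceride synthesis, went from -0.47 ± 0.11 to 0.43 ± 0.11 (shift 0.90 ± 0.15, adjusted p = 0.0234).

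**Figure D3:**
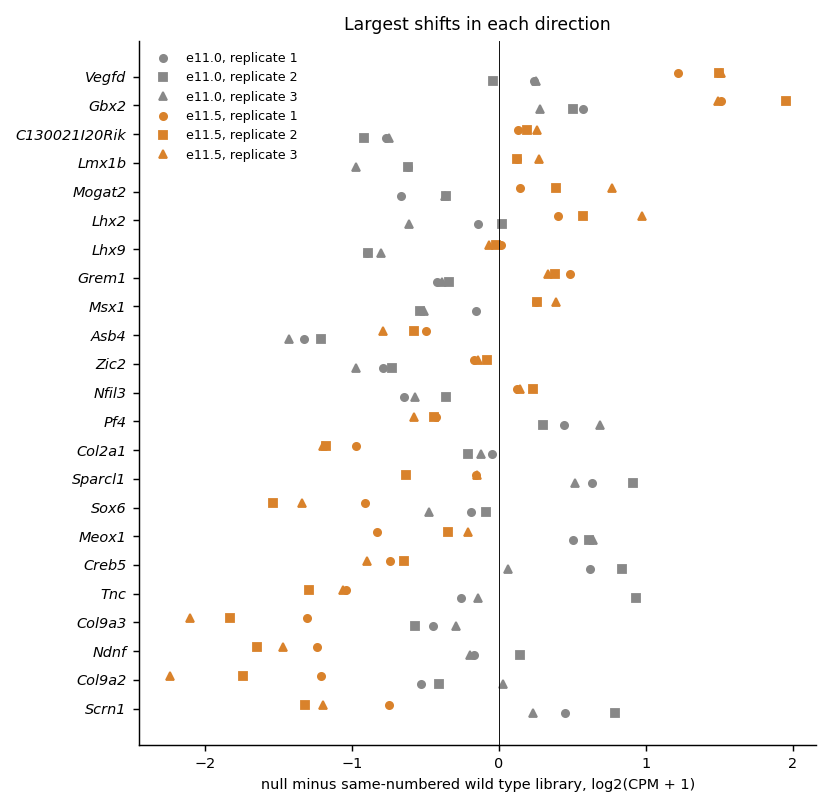
Null minus the same-numbered wild type library, in log2(CPM + 1), for 12 positive and 11 negative stage shifts named by rule, with grey points for e11.0 and orange for e11.5 and a symbol per replicate. In all 23 genes shown the 3 orange points lie on 1 side of the 3 grey ones, as the rule for naming requires.

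Isl1, a LIM-homeodomain gene active before the hindlimb bud forms, had a shift of -0.71 ± 0.14 (limma adjusted p = 0.0527, and 0.0339 with the block). The identity genes Hoxc10 and Hoxc11 had shifts of 0.34 ± 0.16 and 0.30 ± 0.14, and neither passed (adjusted p = 0.248 and 0.232).

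Ndnf, a secreted glycoprotein first described in neurons, shared the second smallest adjusted p (0.0046 by limma) with Lhx9 and C130021I20Rik. Ndnf was at 6.94, 7.59 and 6.6 CPM in wild type and 6.06, 8.48 and 5.64 CPM in the null at e11.0, and at 18.5, 19.4 and 13.4 against 7.27, 5.48 and 4.2 CPM at e11.5. The 2 genotypes overlapped at e11.0 and were apart at e11.5, and the shift was -1.38 ± 0.17. Scrn1, a cytosolic protein of the secernin family, had the most negative shift of the 47, -1.58 ± 0.21 (adjusted p = 0.00672). It was at 2.06, 2.53 and 2.15 against 3.19, 5.13 and 2.7 CPM at e11.0, where every null library was above wild type, and at 12.2, 14.8 and 11.9 against 6.88, 5.34 and 4.64 CPM at e11.5, where every null library was below.

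Creb5, a transcription factor of the CREB family, had the same pattern at 1.8, 2.01 and 3.69 against 3.29, 4.39 and 3.87 CPM at e11.0 and 10.4, 9.77 and 9.47 against 5.82, 5.85 and 4.61 CPM at e11.5 (shift -1.27 ± 0.19, limma adjusted p = 0.0127). Wild type replicate 3 at e11.0 was within the range of the null. Sparcl1, a matrix-associated glycoprotein, was at 8.69, 9.67 and 5.34 against 14, 19 and 8.09 CPM at e11.0 and at 14.1, 16 and 18.1 against 12.5, 9.97 and 16.2 CPM at e11.5, with overlap at both stages and a shift of -1 ± 0.17 (adjusted p = 0.0234).

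Tnc, the matrix protein tenascin C of tendon and connective tissue, was the call among 18 tested genes of that list, whose median shift was -0.22. It was at 3.14, 1.44 and 4.06 CPM in wild type and 2.44, 3.65 and 3.6 CPM in the null at e11.0, and at 7.26, 9.5 and 10.6 against 3.01, 3.31 and 4.57 CPM at e11.5. The groups overlapped at e11.0, where replicate 2 went the other way from replicates 1 and 3, and were apart at e11.5 (shift -1.31 ± 0.26, limma adjusted p = 0.0491, passed in 2 of the 12 fits that left out a library). Postn, another matrix protein of the list, had -0.93 ± 0.26 (0.117) and passed with the block (0.0219). Scx, the early tendon factor, had the same difference at both stages within its error (-1.03 ± 0.15 and -0.91 ± 0.15; shift 0.11 ± 0.21, adjusted p = 0.776).

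Several calls fell on genes of cells other than limb mesenchyme, and in such bulk samples fewer cells of a type and less RNA per cell cannot be told apart. Tnnt1, the slow skeletal troponin T, was the call among 12 tested genes of muscle precursors and myogenesis. It was at 0.514, 0.921 and 0.933 against 1.59, 1.43 and 1.2 CPM at e11.0 and at 4.08, 4.31 and 4.35 against 1.45, 1.8 and 2.72 CPM at e11.5 (shift -1.27 ± 0.19, limma adjusted p = 0.0142). The e11.0 wild type libraries were all below 1 CPM, so Tnnt1 was listed at e11.0 through its null libraries, which fixes the sign of its e11.0 difference. At e11.5 the null was below wild type without overlap. The summed level of the 13 muscle list genes listed at e11.0 was 314 to 347 CPM in wild type and 238 to 287 CPM in the null. That of the 18 listed at e11.5 was 397 to 429 against 268 to 319 CPM. Pax3, of migrating muscle precursors, went the other way (0.79 ± 0.17, adjusted p = 0.0649, and 0.0431 with the block).

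Meox1, a homeobox gene of somites, was the call among 8 tested genes of somite, trunk and flank. It was at 13.4, 15.1 and 17.1 against 19.3, 23.5 and 27.3 CPM at e11.0 and at 18.1, 20.1 and 24.2 against 9.75, 15.6 and 20.7 CPM at e11.5 (shift -1.05 ± 0.19, limma adjusted p = 0.0397). The null was above wild type at e11.0, without overlap, and overlapped with it at e11.5. The summed level of the 9 genes of that list listed at e11.0 was 52 to 67.6 CPM in wild type and 61.5 to 71.3 CPM in the null. That of the 8 listed at e11.5 was 86.9 to 115 against 86.4 to 108 CPM. Of the list's 18 genes 9 were in neither table. The part that trunk tissue has in the result was not tested.

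Pf4, a chemokine of platelets and embryonic macrophages, was at 4.88, 6.16 and 4.55 against 6.96, 7.79 and 7.97 CPM at e11.0 and at 8.36, 9.29 and 10.1 against 5.95, 6.56 and 6.42 CPM at e11.5 (shift -0.96 ± 0.15, limma adjusted p = 0.0147). The null was above wild type at e11.0 and below it at e11.5, with no overlap. It was the call among 12 tested macrophage genes, of which 1 had a positive shift and whose median shift was -0.31. Their summed level was 29.6 to 35.7 CPM in wild type and 32.6 to 37.4 CPM in the null at e11.0, and that of 15 listed genes 51.9 to 63.9 against 41.6 to 51.4 CPM at e11.5. These sums include Pf4, and the list's median difference was 0.01 at e11.0 and -0.25 at e11.5. The part of macrophages in the result was not tested.

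Erbb3, the neuregulin receptor of Schwann cell precursors, was the call among 12 tested nerve genes (shift -0.73 ± 0.14, limma adjusted p = 0.0491), and it passed in 1 of the 12 fits that left out a library. It was at 16.9, 22.8 and 46.3 against 25.1, 24.8 and 54 CPM at e11.0 and at 23.9, 24.6 and 23.5 against 18, 20.1 and 14.7 CPM at e11.5. Null and wild type overlapped at e11.0, where replicate 3 was the highest of both, and not at e11.5. The 12 nerve genes listed at e11.0 summed to a median of 154 CPM in wild type and 131 CPM in the null. The 14 listed at e11.5 summed to 227 to 248 against 178 to 208 CPM. The median difference of the tested nerve genes was -0.01 at e11.0 and -0.22 at e11.5. Gap43, a protein of growing axons, had a positive value of 0.50 ± 0.10 (adjusted p = 0.0527, and 0.0339 with the block). Sema3c, a secreted guidance cue, was the call among 36 genes of axon guidance, going from 0.32 ± 0.08 to -0.32 ± 0.08 (shift -0.64 ± 0.11, adjusted p = 0.0273), and it passed in 2 of those 12 fits.

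The other 20 genes that passed lie outside the rule for naming and are given here after their values were seen. Among signalling genes the Wnt receptors Fzd10 (shift 0.58) and Fzd8 (-0.75) went opposite ways, and Pkdcc, a secreted kinase needed for long bone growth, had 0.53. Enzymes that add sulfate to glycosaminoglycans were on both sides as well, Chst15 with 0.57 and Hs6st2 with -0.55. The homeobox factors Barx2 and Pknox2 were at -0.67 and -0.70, and the transcription factor Sim1 at -0.79. At e11.5 Sim1 was at 1.66, 1.9 and 1.68 CPM in wild type and 0.893, 0.979 and 0.895 CPM in the null. Sim1 was thus listed at e11.5 through its wild type libraries, which fixes the sign of its e11.5 difference. Gpt2, a mitochondrial aminotransferase, had 0.55, Lix1 0.50, Capn6 0.47, Pold2, a subunit of DNA polymerase delta, 0.47, Cep41 0.45 and Mcrs1 0.43. Negative were also Myh14, a nonmuscle myosin (-0.89), Veph1 (-0.81), the kinase Wnk4 (-0.79), Tpd52 (-0.68) and Itm2a (-0.59). Prrx2, given above, completes the 20. Their limma adjusted p-values ran from 0.0132 for Tpd52 to 0.0494 for Pold2 and Pknox2. Capn6, Cep41 and Pold2 passed after none of the 3 scalings.

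Aldh1a2, the enzyme that makes retinoic acid in the embryo, had the most negative value of all genes, -1.69 ± 0.35, and did not pass (limma adjusted p = 0.0527, and 0.0431 with the block). It was at 23.3, 25.6 and 21.7 CPM in wild type and 40.3, 54.8 and 22.6 CPM in the null at e11.0, and at 18.7, 22.5 and 51.8 against 5.92, 6.67 and 49.6 CPM at e11.5. Replicates 1 and 2 reversed between the stages, while in replicate 3, from the other runs, null and wild type were alike at both. In run3982 alone the shift was -2.48 (adjusted p = 0.000293). Crabp1, a retinoic acid binding protein, had 0.65 ± 0.15 (0.0799). Of the 16 tested genes of that list the median shift was 0.07.

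Other lists held no gene past the threshold. The 10 posterior HoxA and HoxD genes had a median difference of -0.14 at e11.0 and 0.18 at e11.5 and a median shift of 0.35, with 5 positive at an unadjusted p under 0.05 (14% over all genes). Hoxd10, a gene of the middle and distal limb, was at 33.8, 29.2 and 16.7 against 27.5, 26 and 16.4 CPM at e11.0 and at 49, 42.7 and 49.9 against 62.4, 56.5 and 60.5 CPM at e11.5 (0.50 ± 0.12, limma adjusted p = 0.0885), and it was called with the block. The 21 tested anterior Hox genes had a median shift of 0.15. The 14 genes of the apical ectodermal ridge had a median of 0.04, and the ridge ligand Fgf8 had 0.20 ± 0.17 (0.51).

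Of the 28 genes of DNA replication and mitosis, 14 had a positive shift at an unadjusted p under 0.05 (14% of all genes did), and 5 passed with the block: Aurka, Aurkb, Cdc6, Plk1 and Rrm2 (1.07% of all genes passed in that direction). The list had a median shift of 0.20. Cdc6, which loads the replicative helicase, was at 90.5, 74.7 and 78 against 75.5, 68.6 and 62.9 CPM at e11.0 and at 79.4, 80.1 and 80.1 against 91.6, 92.8 and 103 CPM at e11.5 (0.49 ± 0.11, limma adjusted p = 0.0683). Null and wild type overlapped at e11.0, and the null was the higher group at e11.5. Aurka, a mitotic kinase, had 0.46 ± 0.10 (0.0534). The 11 genes of developmental timing had a median shift of 0.34, 8 of them positive at an unadjusted p under 0.05 (14% over all genes), among them Igf2bp3, an RNA-binding protein of early stages (0.34 ± 0.09, adjusted p = 0.103).

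Lists of other signals had median shifts from -0.02 to 0.20. The 28 genes of the Wnt pathway had a median shift of -0.02, with Axin2, a feedback target, at 0.46 ± 0.12 (limma adjusted p = 0.105) and Sfrp2, a secreted inhibitor, at -0.54 ± 0.13 (0.0903), both called with the block. The 18 genes of the Bmp and Tgfb pathway had a median of 0 and Tgfb2, a growth factor, a shift of -0.85 ± 0.18 (0.0568, and 0.0325 with the block). The 17 genes of Fgf ligands and response had a median of 0.20, with Il17rd, a feedback inhibitor, at 0.66 ± 0.17 (0.105, and 0.0132 with the block). For hypoxia and glycolysis (19 genes), imprinted growth genes (20), collagens outside cartilage (21), immediate early genes (13) and heat shock and stress (15) the medians were 0.13, -0.04, -0.07, 0.13 and 0.11. Jun, of the immediate early genes, passed with the block (limma adjusted p = 0.0467, and 0.0753 without).

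**Figure D4:**
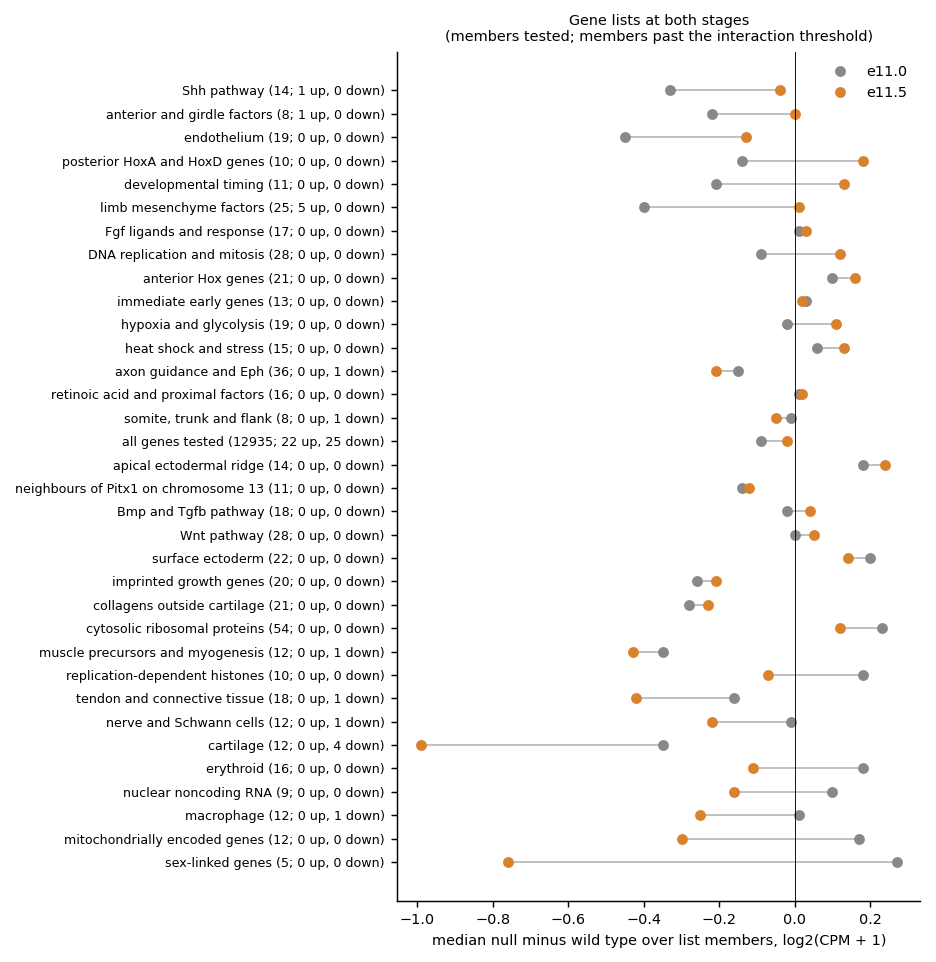
Median null minus wild type difference, in log2(CPM + 1), over the tested members of the gene lists shown, at e11.0 (grey) and e11.5 (orange), ordered by median shift, with the number tested and the numbers past the threshold beside each name. The cartilage list lies at -0.35 and -0.99, the limb mesenchyme list at -0.40 and 0.01, and all genes at -0.09 and -0.02.

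Markers of other cells were measured beside these results, and their part in the shifts was not tested. The 19 tested endothelial genes had a median difference of -0.45 at e11.0 and -0.13 at e11.5, with 10 positive shifts at an unadjusted p under 0.05 (14% over all genes) and none called. Their summed level was 329 to 423 CPM in wild type and 226 to 314 CPM in the null at e11.0, and 640 to 729 against 560 to 697 CPM at e11.5. Sox18, an endothelial transcription factor, had a shift of 0.56 ± 0.15 (limma adjusted p = 0.119). All 16 erythroid genes had negative shifts (median -0.29), with sums of 5350 to 11800 against 6790 to 18600 CPM at e11.0 and 3110 to 3700 against 2850 to 3340 CPM at e11.5. The 22 surface ectoderm genes had a median shift of -0.02, and Tfap2c of that list 0.79 ± 0.16 (0.0527, called with the block).

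The median shifts of 4 lists that speak of RNA or library quality were negative, and their part in the results was not tested. The 12 tested mitochondrially encoded genes all had negative shifts, with a median of -0.44, and 8 had an unadjusted p under 0.05 (6.56% of all genes were negative at that p). The median shifts of 9 nuclear noncoding RNAs, of 10 replication-dependent histone genes and of 54 cytosolic ribosomal protein genes were -0.30, -0.20 and -0.11, and the histone gene Hist3h2ba passed with the block (limma adjusted p = 0.0366). Of the 60 histone genes, whose mRNAs carry no poly(A) tail, 45 were listed only at e11.0. Xist differed more between replicates than between genotypes. Xist, the RNA of the inactive X chromosome, was at 5.24, 373 and 697 CPM in wild type and 3.03, 273 and 673 CPM in the null at e11.0, and at 0.0844, 139 and 585 against 0.231, 69.1 and 650 CPM at e11.5. The Y-linked Ddx3y was at 111, 61.1 and 0.28 CPM in wild type and 142, 82.5 and 0.793 CPM in the null at e11.0. At e11.5 it was at 73.4, 30 and 16.8 against 70.9, 27.1 and 3.17 CPM. Replicate 2 of every group thus held RNA of both sexes, and Xist rose with the replicate number while Ddx3y fell. The part of sex in the shifts was not tested. The Ddx3y shift of -1.18 ± 0.61 (limma adjusted p = 0.28) rested on replicate 3 at e11.5.

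The 47 genes were spread over 17 chromosomes, with at most 6 on any 1, and 46 were protein coding (93.9% of all genes tested). With all genes in 3 classes of equal number by exonic length (up to 3363 bases, up to 5962 bases and longer), the 22 positive genes numbered 10, 9 and 3 and the 25 negative genes 7, 3 and 15. Over all genes the median shift was 0.01, 0.07 and 0.07 in the same classes. Library type differs between the stages, and its part in these counts was not tested.

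Promoter letters were compared over 9849 tested genes that matched an entry of the RefSeq promoter table, 34 of the 47 among them, 20 positive and 14 negative. Of the 4 called cartilage genes Col9a2 and Sox6 were searched, and Col2a1 and Col9a3 were not. TAATCC, the core bound by Pitx1, was searched on both strands of the 250 bases before the start. It was in 461 promoters (4.68%) and in none of the 34. ACAATGG, a Sox9 motif, was in 140 (1.42%) and likewise in none of the 34. The TATA box letters TATAAA were in 581 (5.9%), in 1 of the 20 positive genes (Vegfd) and in 4 of the 14 negative ones (Hs6st2, Sim1, Tnc and Tnnt1). A match is only a run of letters in a short window, and distant enhancers were not searched.

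All 47 genes had the same sign of shift under every one of the 26 alternatives in which they were tested. Each library was also left out in turn. Without replicate 3 of either genotype at a stage, the other replicate 3 is alone in its run. Both such fits take that stage's null difference from run3982 only, so they are not separate checks. In all 12 fits 8 genes passed: Asb4, C130021I20Rik, Col2a1, Lhx9, Ndnf, Gbx2, Scrn1 and Vegfd. The other 39 lost the call without at least 1 library, and 22 of them passed in at most 3 of the 12 fits. These include Lhx2, Lmx1b, Msx1 and Zic2 with 3, Tnc and Sema3c with 2, and Erbb3 and Nfil3 with 1, the fit without wild type replicate 2 at e11.0. The count of 47 was 13 and 2567 without wild type replicates 1 and 2 at e11.0, 31 and 10 without null replicates 1 and 2 at e11.0, 13 and 12 without wild type replicates 2 and 3 at e11.5, and 17 and 12 without null replicates 2 and 3 at e11.5. The 2567 genes without wild type replicate 2 at e11.0, 1869 positive and 698 negative, included all 47. In run3982 alone 18 genes passed, 11 of them among the 47. The difference between the authors' deposited log2 fold changes of the 2 stages had the same sign as the shift in all 47 genes, and in 92.7% of all genes.

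**Figure D5:**
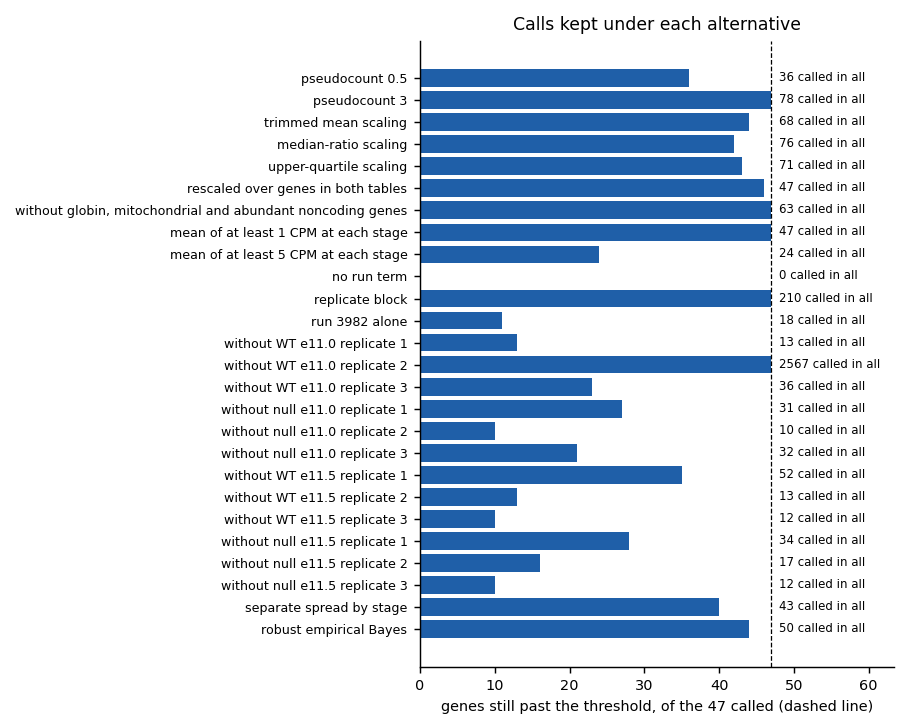
Number of the 47 called genes that passed again under each alternative setting (bars, from 0, with the dashed line at 47), with the total number called beside each bar. All 47 were called again with the replicate block and without wild type replicate 2 at e11.0, 10 to 35 in the other 11 fits that left out 1 library, and 0 without the run term.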

How the data were processed

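RNA was measured in 12 hindlimb libraries from timed breedings, from total RNA taken over silica columns, as the labels' protocols say. The submitters' processing notes name STAR, featureCounts, edgeR and the build GRCm38 (mm10); versions and the strand setting are not given in the sources used here. The authors deposited CPM per library, a log2 fold change and mean log2 CPM, a likelihood-ratio score, and p-values, per the file headers. Every listed gene had at least 1.003 CPM in at least 3 libraries, so lower genes were not analysed here, and 19 symbols that the e11.0 file holds as dates were taken by identifier.

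The tables were joined by gene identifier, and 12915 of 12935 genes matched GENCODE release M21. CPM were fitted as log2(CPM + 1) with limma 3.58.1 in R 4.3.3 (limma-trend), with an intercept for each stage and run, 6 residual degrees of freedom and two-sided tests. The tables hold CPM, so the main test is on a log scale. The model was also run on simulated data with independent noise in each library. Whether libraries of these data deviated together beyond the difference between runs was not measured, so the simulation does not measure the error rate here. Divided by the CPM of 1 read, 100% of values came out whole within 0.01. A step searched for from the lowest values alone was found in 3 of 12 libraries, so the reads were used for depth only and no count test was run. Same-numbered null and wild type libraries deviated together across genes, the correlations being 0.68, 0.63 and 0.85 (e11.0) and 0.74, 0.84 and 0.92 (e11.5) for replicates 1, 2 and 3. Replicates 1 and 2 share a run, and their differently numbered libraries correlated too, at 0.57 and 0.40 (e11.0) and 0.64 and 0.63 (e11.5). Pairs of replicate 3 with replicate 1 or 2 were at -0.61 to -0.85. Deviations were taken from the mean of each group, so they include the difference between runs, which the main fit removes. A blocked fit by replicate number is given where it changes a call. The labels do not state that same-numbered libraries are pairs, and these correlations cannot separate such pairing from run.

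The comparison and the 34 gene lists were chosen with earlier results of these data known. Genes were named by rule: Pitx1 and Tbx4, the 12 most positive and 12 most negative shifts past the threshold with a mean of at least 5 CPM in 1 group and 3 same-numbered differences that do not overlap between stages, and up to 4 called genes per list, or up to 2 by smallest p given as values. The result of 1 gene that the rule gives is not reported here. Alternatives covered the pseudocount, scaling, low values, the run term, the block, run3982 alone, the spread and each library left out.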

Additional observations from a re-analysis of the deposited data

Results flagged for a closer look

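The null effect differed between e11.0 and e11.5 by a test of the difference itself, limma's interaction contrast, in 47 genes (0.363% of those tested), with library type changing together with stage. Of the genes named by rule and reported here, those with positive shifts were Vegfd (1.26), Gbx2 (1.2), C130021I20Rik (1.01), Lmx1b (0.91), Mogat2 (0.90), Lhx2 (0.89), Lhx9 (0.84), Grem1 (0.78), Msx1 (0.71), Asb4 (0.70), Zic2 (0.70) and Nfil3 (0.69). Negative shifts were those of Scrn1 (-1.58), Col9a2 (-1.42), Ndnf (-1.38), Col9a3 (-1.31), Tnc (-1.31), Creb5 (-1.27), Tnnt1 (-1.27), Meox1 (-1.05), Sox6 (-1.01), Sparcl1 (-1), Col2a1 (-0.99), Pf4 (-0.96), Erbb3 (-0.73) and Sema3c (-0.64). In all 47 genes the 3 same-numbered differences at e11.5 lay on 1 side of the 3 at e11.0, as in 30.2% of all genes (21.1% above and 9.1% below). The 47 genes were called from these same values, so this describes them and is not separate evidence.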

How the results depend on the processing

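The count of 47 genes was 36 and 78 with pseudocounts of 0.5 and 3, and 68 after trimmed-mean, 76 after median-ratio and 71 after upper-quartile scaling. With a mean of at least 5 CPM at each stage 10305 genes were tested, 35 of the 47 among them, and 24 passed. The count was 0 by limma without the run term (335 at an unadjusted p under 0.05), 210 with the replicate block and 18 in run3982 alone, which has fewer samples. The cause of these changes was not tested. Left-out libraries gave 10 to 2567. Scaling moved the median shift of all genes from 0.049 to 0.005, -0.019 and -0.009. The shift of Pitx1 passed with the replicate block (0.42, adjusted p = 0.0211) and ranged from 0.35 to 0.49 over left-out libraries. That of Tbx4, near 0 throughout, changed sign to 0.11, 0 and 0.01 without wild type replicate 2 or null replicate 2 at e11.0 or null replicate 2 at e11.5, and ranged from -0.14 to 0.11. Of the alternative values for single named or called genes other than Pitx1 and Tbx4, 1844 kept their side of the threshold, 439 lost it, 80 gained it and 0 changed sign. The planned count-based fit was not run; the lowest CPM values alone gave the step of 1 read in 3 of 12 libraries. Library type cannot be separated from stage, and genes listed at 1 stage alone give no shift.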
